A study of Mus musculus with 2 samples.

Results

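Neutrophils of mouse perigonadal white adipose tissue (gWAT) were picked out of single-cell RNA-sequencing libraries of eYFP+ cells by their transcripts. A barcode was kept as a cell when it held 500 to 40000 UMIs (unique molecular identifiers, each standing for 1 captured RNA molecule), at least 100 genes and under 12.5% of UMIs from mitochondrial (mt-) genes. A kept cell was called a neutrophil when it held a UMI of at least 3 of 8 genes (S100a8, S100a9, Retnlg, Csf3r, Cxcr2, Asprv1, Clec4e and Mmp9), fewer than 2 of the macrophage genes C1qa, C1qb, C1qc and Csf1r, and none of Cd79a, Wt1 and Pdgfra. This gave 221 neutrophils among 18753 kept cells. Since the cells were selected on their own counts, the levels of all genes in them are given as a description, and differences from other cell classes carry no test.

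The libraries came from male Cyp1a1Cre x R26LSL-eYFP mice on a purified diet for 12 weeks, either a low-fat diet with 10% fat (LFD) or a high-fat diet with 60% fat (HFD). Mice on both diets received 10 mg/kg FICZ, a ligand of the aryl hydrocarbon receptor (AHR), 5 days before the fat was taken. Live (DAPI-) eYFP+ cells of the stromovascular fraction were sorted and run on the 10x 3′ platform, with mice pooled into 1 library per diet. eYFP marks cells in which the Cyp1a1-driven Cre was active at any earlier time, in the cell itself or in a precursor, so it does not report present AHR activity, and cells without eYFP were not sequenced. With 1 library per diet no difference between diets could be tested against the spread between animals. Intervals are 95% intervals for counting error only, and the diet cannot be told apart from whatever else differed between the libraries.

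Neutrophils are short-lived granulocytes that are made in the bone marrow, circulate in blood and enter inflamed tissue early. Their granule proteins are produced in waves, with primary granules in promyelocytes, secondary granules in later precursors and tertiary granules in nearly mature cells, while blood and tissue neutrophils make cytokines such as interleukin 1 and chemokines that attract further leukocytes. In obese adipose tissue they are known as early and scarce arrivals. They hold little RNA, which makes them shallow cells in droplet data.

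The neutrophils were 163 of 10216 cells in the LFD library, 1.60% (interval 1.36 to 1.86%), and 58 of 8537 cells in the HFD library, 0.679% (0.516 to 0.877%). The HFD share was 0.426 times the LFD share (0.310 to 0.578). Plasma cells numbered 274 in LFD and 1152 in HFD, and without them in the denominator the neutrophil shares were 1.64% and 0.785%, a ratio of 0.479. Among the cells of 6 immune classes, neutrophils made up 7.57% in LFD but 2.17% in HFD (ratio 0.287). These classes include the plasma cells, whose larger number in HFD lowers this ratio. The neutrophil share was lower in the HFD library with each of these denominators.

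The genes that led the neutrophils over all other kept cells matched the label, including genes the rule did not use. Mrgpra2b, a Mas-related receptor, had 88 UMIs in LFD and 26 in HFD neutrophils, 1418-fold and 5298-fold above the level in all other cells. The stefin gene Cstdc4 had 271 and 56 UMIs, Stfa2l1 had 222 and 52, and Ly6g, the surface antigen used to sort mouse neutrophils, had 64 and 8. Transcripts of eosinophils, basophils and mast cells were near absent, with 1 UMI in LFD and 3 in HFD over 12 markers. B cell markers, of which the rule allowed no Cd79a, had 3 and 2 UMIs, and T cell and innate lymphoid cell markers 4 and 3.

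The members differed in how well they met the rule. In LFD 46 cells held 6 of the 8 markers, the most frequent number, and 15 held all 8, whereas in HFD the most frequent numbers were 3, 4 and 5, with 13, 11 and 11 cells, and 3 cells held all 8. Cells just inside the rule, with exactly 3 markers, were 13 in LFD and 13 in HFD, and S100a8 and S100a9 made up a median of 0.0777% and 0.346% of their UMIs. Cells just outside, with exactly 2 markers and all other conditions met, numbered 24 and 23 with medians of 0.0154% and 0%. Csf3r, the receptor for granulocyte colony-stimulating factor, stood at 318 and 454 CPM (UMIs per 1000000 UMIs of the summed cells) just inside and at 85.4 and 72.7 CPM just outside. These 3 genes belong to the rule, which by itself favours higher levels inside. Of the cells just outside, 15 in LFD and 14 in HFD held 3 or more of 12 macrophage markers, against 6 and 1 just inside. Cells with exactly 3 markers made up 7.98% of LFD and 22.4% of HFD neutrophils, and some of them carried macrophage transcripts.

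Neutrophils were the shallowest class. Their median depth was 1271 UMIs and 604 genes in LFD (511 to 24910 UMIs) and 1027.5 UMIs and 534.5 genes in HFD (516 to 8360 UMIs), against medians of 10636.5 and 13231 UMIs over all kept cells and 4537 and 6317 UMIs in macrophages. Only 5 LFD and 1 HFD neutrophils lay within 100 UMIs of the lower limit. Mitochondrial genes took a median of 1.18% and 0.931% of their UMIs, against 5.90% and 5.70% in macrophages. Summed over cells, the neutrophils held 298776 UMIs in LFD and 92396 in HFD, which sets the precision of all levels below. The libraries shared 27 cell barcodes, 2 of which belonged to neutrophils.

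Endothelial RNA was present in the neutrophils in a split manner. Of 16 endothelial markers (among them Pecam1, Cdh5, Cldn5, Kdr, Gpihbp1 and Fabp4), 106 LFD and 41 HFD neutrophils held none and 36 and 11 held 1, while 21 LFD and 6 HFD neutrophils held 3 to 16 and 13 to 15 of them. No neutrophil held exactly 2. The 27 cells with endothelial markers were deeper, with median depths of 2910 UMIs in LFD and 5318.5 UMIs in HFD, and they held 37.8% and 34.7% of all neutrophil UMIs although they were 21 of 163 and 6 of 58 cells. When the cells with the highest doublet scores from Scrublet were taken at an assumed rate of 0.8% per 1000 barcodes, they held 7 of these 21 LFD cells and 3 of these 6 HFD cells, of 8 and 3 neutrophils in all. Whether the 27 cells are doublets, adhering cells or cells that took up RNA was not tested. A further 6 LFD cells and 1 HFD cell held 3 or more of 12 macrophage markers. The remaining 136 LFD and 51 HFD cells, 187 in all, are called core neutrophils here. Core neutrophils still made up 1.33% and 0.597% of cells, a ratio of 0.449 (0.319 to 0.623).

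**Figure D1:**
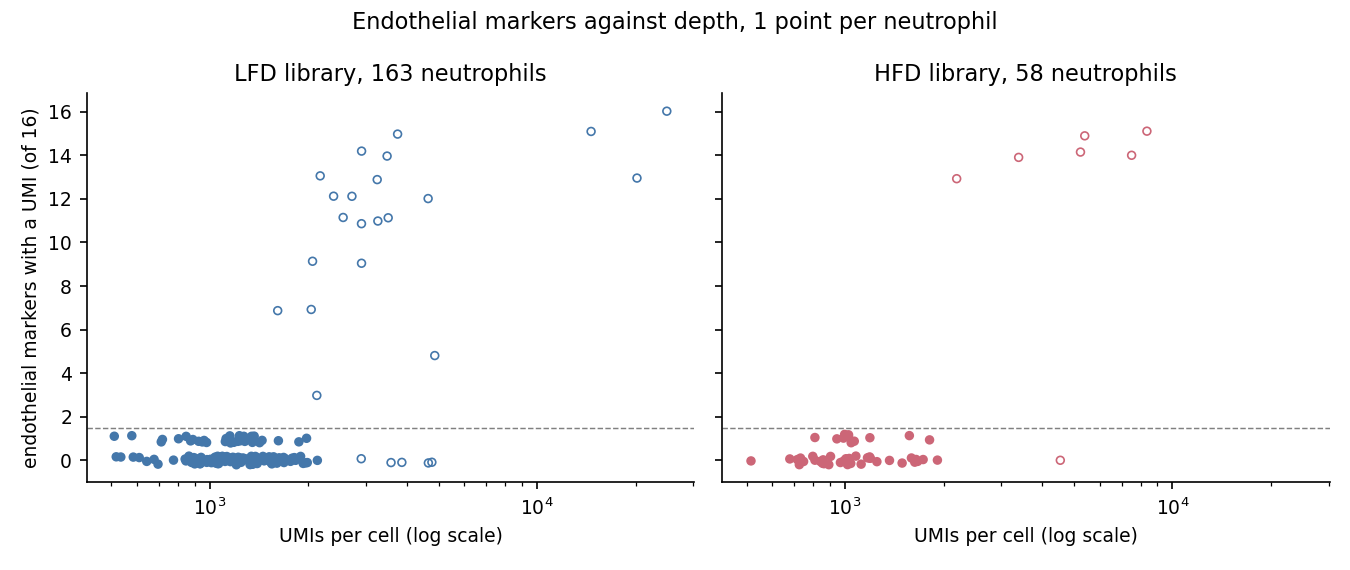
Number of the 16 endothelial markers with a UMI (y axis, points spread slightly around whole numbers) against UMIs per cell (x axis, log scale) for each LFD and HFD neutrophil, with open points for cells with at least 2 endothelial or 3 macrophage markers and a dashed line between 1 and 2 markers. The 27 endothelial-positive cells stand at 3 to 16 markers with a gap below them, and the 187 filled points are the core neutrophils.

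Summed over the 16 markers, the endothelial level was 10185 CPM (9826 to 10553) in LFD neutrophils and 15845 CPM (15044 to 16678) in HFD neutrophils. In the cells with at least 2 markers it was 26465 and 45251 CPM, below the 38150 and 53039 CPM of the endothelial cells of the same libraries, and both classes were chosen for such markers. The core neutrophils of LFD stood at 334 CPM (251 to 434) and those of HFD at 215 CPM (111 to 376). Macrophages held 519 and 1133 CPM and B cells 210 and 216 CPM. Among cells of 500 to 3000 UMIs, B cells stood at 278 and 443 CPM and macrophages at 678 and 1105 CPM. T cells and innate lymphoid cells of this depth stood at 207 and 232 CPM. The low sum of the core neutrophils follows from their definition by these markers, and the other classes had no such limit, so the levels are not compared. Nearly all endothelial RNA of the neutrophils sat in 27 cells.

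Cyp1a1, the AHR target that drives the reporter, was found mainly in the cells with endothelial markers. LFD neutrophils held 59 Cyp1a1 UMIs and HFD neutrophils 10, and 57 and 10 of these were in the cells with at least 2 endothelial markers. Per 1000 endothelial marker UMIs these cells held 19.1 Cyp1a1 UMIs in LFD (14.4 to 24.8) and 6.89 in HFD (3.30 to 12.7), set against 16.5 and 12.1 in endothelial cells and 24.2 and 14.9 in endothelial cells of 500 to 3000 UMIs. Of the 10 HFD UMIs 50% were in 1 cell. Core neutrophils held 2 and 0 Cyp1a1 UMIs, 12.1 CPM (1.47 to 43.8) in LFD and 0 in HFD, where 0 counts allow up to 53.8 CPM. The level in B cells, 15.6 and 16.6 CPM, lay within these limits. Ahr itself had 6 and 2 UMIs in all neutrophils, 20.1 and 21.6 CPM, so its level could not be resolved at this depth.

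**Figure D2:**
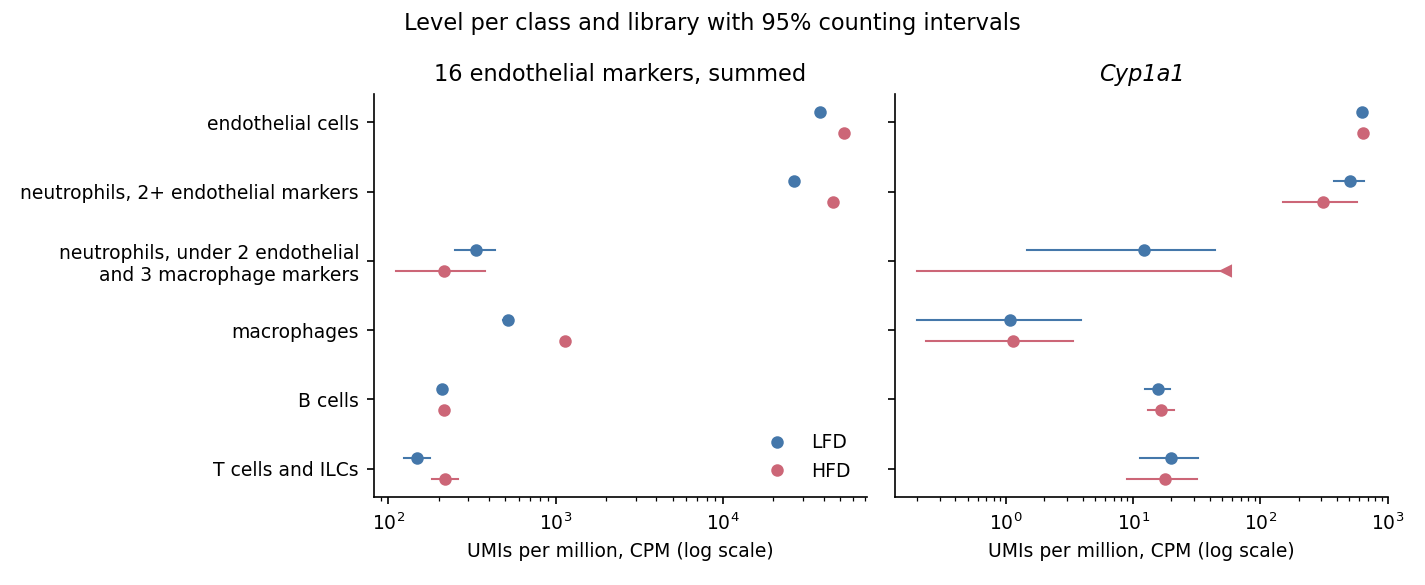
Summed level of the 16 endothelial markers (left) and of Cyp1a1 (right) in CPM on log axes, for neutrophils with at least 2 endothelial markers, core neutrophils and 4 other classes in each library, with 95% counting intervals as bars and an arrowhead at the upper limit that 0 counts allow (53.8 CPM) where no UMI was found. Cyp1a1 stood at 505 and 312 CPM in the endothelial-positive neutrophils and at 12.1 and 0 CPM in the core neutrophils.

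The neutrophils carried RNA of other abundant cells as well. Stromal markers summed to 3548 CPM in LFD and 2009 CPM in HFD core neutrophils, against 1246 and 675 CPM in macrophages and 2039 and 1302 CPM in macrophages of 500 to 3000 UMIs, and the stromal and mesothelial cells were the largest class in both libraries. The immunoglobulin gene Igkc stood at 667 and 1901 CPM in core neutrophils and at 564 and 1768 CPM in macrophages of 500 to 3000 UMIs, and Ighm at 279 and 986 CPM against 271 and 872 CPM. These levels differed between the libraries in the same direction in both classes. Monocyte markers summed to 1807 and 866 CPM in all neutrophils, and to 1201 and 610 CPM in the core. By the 2-fold criterion used for all genes, which called 4.08% of them lower in HFD, 4 of 7 compared monocyte genes were lower (Ly6c2, Ms4a6c, Csf1r and Plac8). In the core 1 of 4 was lower (Plac8), beside 5.5% of all genes. Dendritic cell markers stood at 254 and 260 CPM and mural cell markers at 80.3 and 97.4 CPM. Of 9 erythroid and platelet markers 8 were at 0, and the other was Pf4, also a macrophage gene, with 27 and 2 UMIs. The part of such RNA in the diet differences of neutrophils was not tested.

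The most abundant transcripts of the core neutrophils were S100a9 and S100a8, the subunits of calprotectin, with the ferritin genes Fth1 and Ftl1. Cxcl2, Tmsb4x, Srgn, Actb, S100a6, Il1b, Tyrobp, Ifitm1, Slpi and Retnlg came next. S100a8 (chr3:90668978-90670035, + strand, mm10) was found in 163 of 163 LFD and 57 of 58 HFD neutrophils, and S100a9 (chr3:90692632-90695721, - strand) in 154 and 50. For comparison, 4.05% of LFD B cells (median depth 4092 UMIs) and 0.490% of HFD B cells (4291 UMIs) held an S100a8 UMI. Free RNA and doublets could both add to this share, since single B cells reached 9.27% of UMIs in S100a8 and S100a9 in LFD, and their parts were not tested. All levels are counts from transcript 3′ ends and are not scaled to gene length.

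The LFD neutrophils held S100a8 at 42801 CPM and the HFD neutrophils at 22999 CPM, an HFD to LFD ratio of 0.54 (0.51 to 0.56), and S100a9 at 47624 and 26960 CPM, a ratio of 0.57 (0.54 to 0.59). In core neutrophils the levels were 68852 and 36638 CPM for S100a8 and 79145 and 43112 CPM for S100a9. Per cell, both genes together took a median of 12.9% of the UMIs of LFD core neutrophils (quartiles 8.54 and 18.3%) and 7.17% of those of HFD core neutrophils (2.52 and 12.5%), and the ranges overlapped widely. The endothelial-positive neutrophils had lower shares, with medians of 3.47% and 0.334%. Calprotectin shares under 1% were found in 4 of 136 LFD and 9 of 51 HFD core neutrophils. All 9 HFD cells held Csf3r, a gene of the rule. Of neutrophil genes outside the rule they held Hp (4 UMIs in 3 cells), Stfa2l1 (3 UMIs in 3 cells) and Mmp8 (3 UMIs in 2 cells). They held no Lcn2 and no Ly6g, which was in only 4 of the other 42. Retnlg, also of the rule, had 2 UMIs in 1 cell. Their median was 3 rule markers, against 5 in the other 42. A UMI of C1qa, C1qb, C1qc or Csf1r was in 2 of the 9 and in 2 of the other 42. Gpnmb had 13 UMIs in 3 of the 9 cells and 10 UMIs in 1 of the other 42 HFD core neutrophils, and Clec4n had 26 UMIs in 5 and 41 UMIs in 19 cells.

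**Figure D3:**
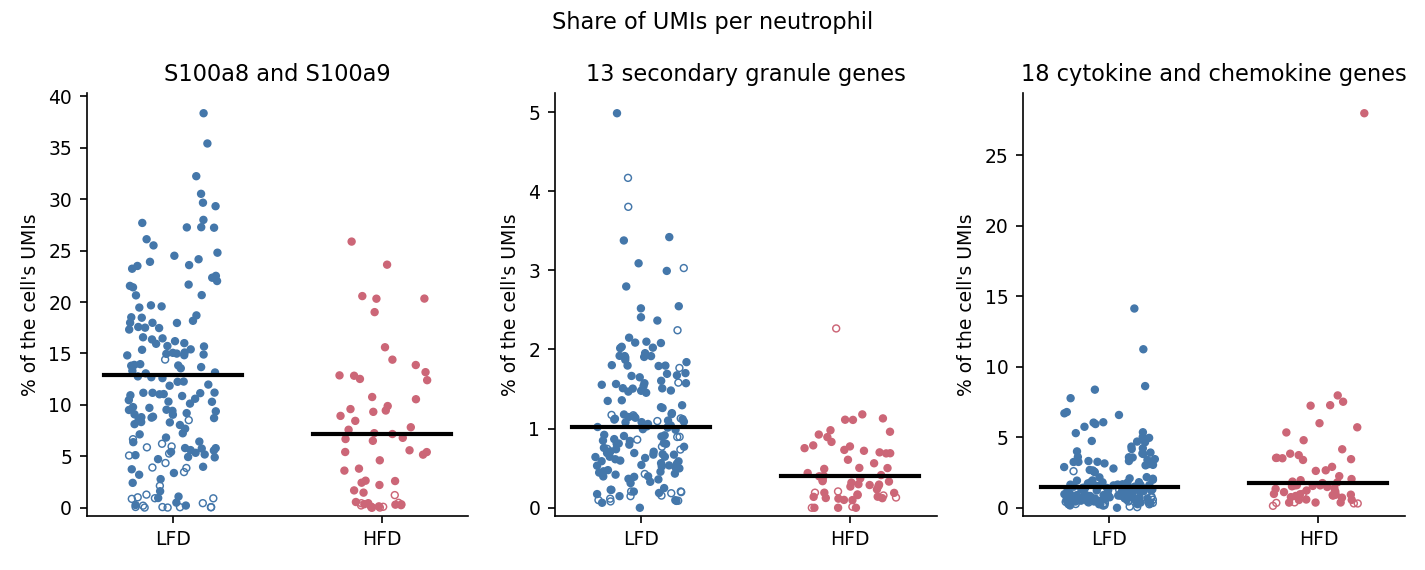
Share of each neutrophil's UMIs taken by S100a8 and S100a9, by 13 secondary granule genes and by 18 cytokine and chemokine genes (y axes, %), with 1 point per cell, open points for cells with endothelial or macrophage markers and bars at the medians of the core neutrophils. The medians were 12.9 and 7.17%, 1.02 and 0.398%, and 1.47 and 1.75% in LFD and HFD, and 1 HFD cell reached 28.0% cytokine UMIs.

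The levels of the other genes of the rule are listed here as a description. Retnlg, a resistin-like protein, had 1247 UMIs in 108 LFD cells and 144 UMIs in 24 HFD cells, or 4174 and 1559 CPM, a ratio of 0.37 (0.31 to 0.44). Csf3r stood at 679 and 779 CPM (ratio 1.15, 0.86 to 1.51), and the chemokine receptor Cxcr2 at 402 and 411 CPM (1.02, 0.69 to 1.49). The protease gene Asprv1 stood at 1061 and 1115 CPM (1.05), the lectin receptor Clec4e, also called Mincle, at 1402 and 1634 CPM (1.17) and the gelatinase Mmp9 at 833 and 574 CPM (0.69). Only Retnlg of the 8 differed 2-fold, where 4.08% of all genes were called lower and 7.75% higher in HFD. The rule used these genes, so nothing is read from this count.

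For all genes, a difference between diets was called when the ratio of CPM was at least 2-fold with a counting interval that left out 1, among genes with at least 20 UMIs over both libraries. Of 2891 such genes, 224 (7.75%) were higher and 118 (4.08%) lower in HFD neutrophils, and the median ratio was 1.02. In core neutrophils 1474 genes could be compared, of which 127 (8.62%) were higher and 81 (5.5%) lower, with a median ratio of 1.03. Of the genes higher in all neutrophils, 93 were also called in the core, which is 41.5% of 224 and 73.2% of 127. Of those lower, 58 were shared, 49.2% of 118 and 71.6% of 81. Of the endothelial markers, 4 (Cldn5, Gpihbp1, Cd36 and Ly6c1) were among the genes higher in all HFD neutrophils. In the core, which is defined by these markers, only 1 of the 16 had enough UMIs to be compared.

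Gene lists were chosen with earlier results of these data known, so counts of calls within them are a description. None of 13 secondary granule genes was called higher in HFD. Of 10 with enough UMIs 8 were called lower, against 4.08% of all genes, with a median ratio of 0.251. In core neutrophils 7 of 9 were lower, against 5.5% of all genes, with a median ratio of 0.227. Macrophages held a higher sum of this list, 20140 and 18884 CPM, against 10533 and 4329 CPM in all neutrophils. Of 9 genes compared with macrophages, 4 were above them in both libraries and 2 below. The list is therefore not particular to neutrophils. Lcn2 (chr2:32384633-32388252, - strand), the siderophore-binding lipocalin 2, had 746 UMIs in 120 of 163 LFD cells and 51 UMIs in 18 of 58 HFD cells, 2497 and 552 CPM, a ratio of 0.22 (0.16 to 0.29). After each cell was thinned to 500 UMIs, 54.2% of LFD and 22.8% of HFD neutrophils were left with an Lcn2 UMI, against 0.322% and 0.0272% of B cells. Mmp8, neutrophil collagenase, had 300 and 25 UMIs (1004 and 271 CPM, ratio 0.27, 0.17 to 0.41), and Wfdc21, a secreted antiprotease-like protein, had 279 and 18 UMIs (934 and 195 CPM, ratio 0.21, 0.12 to 0.34). Lyz2, lysozyme, stood at 3518 and 1623 CPM (0.46), but 57.3% of its HFD UMIs were in 1 cell, without which, and without the top LFD cell, the ratio was 0.24.

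Several granule calls rested on few cells or on a few counts. Ngp had 35 UMIs in 9 LFD cells, 51.4% of them in 1 cell, and 1 UMI in HFD. Chil3 had 40 UMIs in 8 LFD cells and none in HFD, and only 2 of the 40 were in core neutrophils. Ifitm6 had 125 and 9 UMIs (0.23) and Cybb, the gp91phox subunit of the NADPH oxidase, 115 and 11 (0.31). The partner subunit Cyba did not share this and stood at 1252 and 1277 CPM (1.02, 0.82 to 1.26). The classical secondary granule genes Ltf and Camp were at 0 and 1 UMI and at 2 and 0 UMIs.

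Lists of primary and tertiary granule genes were compared as well. Of 5 primary granule genes, Mpo, Elane, Ctsg and Ms4a3 were not detected in any neutrophil, where 0 counts allow up to 10.0 CPM in LFD and 32.5 CPM in HFD, and Prtn3 had 2 and 1 UMIs. Of 8 genes on the tertiary granule list 7 were compared and 2 were lower in HFD, beside 4.08% of all genes. This list overlaps the secondary one, so the count is not read as a result on tertiary granules alone. Hp, haptoglobin, had 534 UMIs in 127 LFD cells and 39 UMIs in 20 HFD cells (1787 and 422 CPM, ratio 0.24, 0.17 to 0.33), and Lyz2 is also on this list. Slpi, the secretory leukocyte protease inhibitor, stood at 3123 and 3626 CPM (1.16, 1.02 to 1.32) and at a ratio of 0.983 without the top cells. In core neutrophils Prok2 was a further lower gene of this list, beside 5.5% lower over all genes. Pglyrp1, a granule peptidoglycan-binding protein named by its difference from macrophages, was at 616 and 195 CPM (0.32, 0.18 to 0.51).

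Promoters are shown for S100a9, the most abundant marker, for Mmp8 and Retnlg, which were lower in HFD, and for the chemokine gene Ccl3, which was higher. They are RefSeq promoter sequences of GRCm38.p6, the 250 bases that end just before the start, 5′ to 3′ on the gene's strand, chosen after the values were known. Capitals mark matches on either strand to TTGCNNAA, a short form of the motif bound by C/EBP factors of granulocyte development. S100a9 lies at chr3:90695722-90695971 (- strand), Mmp8 at chr9:7558179-7558428 (+), Retnlg at chr16:48872358-48872607 (+) and Ccl3 at chr11:83649379-83649628 (-).
S100a9: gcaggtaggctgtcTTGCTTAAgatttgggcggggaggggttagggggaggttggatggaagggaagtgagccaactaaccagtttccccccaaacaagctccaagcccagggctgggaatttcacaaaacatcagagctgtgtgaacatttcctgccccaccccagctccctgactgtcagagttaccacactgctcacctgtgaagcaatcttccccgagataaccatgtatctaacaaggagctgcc
Mmp8: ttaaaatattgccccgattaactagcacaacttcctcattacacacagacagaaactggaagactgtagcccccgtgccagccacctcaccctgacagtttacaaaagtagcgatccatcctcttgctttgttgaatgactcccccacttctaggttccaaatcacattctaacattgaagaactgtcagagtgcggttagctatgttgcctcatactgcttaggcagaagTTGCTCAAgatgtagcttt
Retnlg: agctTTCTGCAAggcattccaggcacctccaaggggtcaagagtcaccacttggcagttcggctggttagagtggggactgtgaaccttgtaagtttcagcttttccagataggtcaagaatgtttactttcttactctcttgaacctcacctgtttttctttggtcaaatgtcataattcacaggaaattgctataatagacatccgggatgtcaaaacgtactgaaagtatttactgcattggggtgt
Ccl3: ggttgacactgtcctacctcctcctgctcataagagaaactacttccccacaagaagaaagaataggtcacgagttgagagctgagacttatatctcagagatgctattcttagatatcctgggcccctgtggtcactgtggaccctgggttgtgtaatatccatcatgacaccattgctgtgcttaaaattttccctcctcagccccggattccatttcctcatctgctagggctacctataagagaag

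S100a9, Mmp8 and Retnlg each held a C/EBP match, and Ccl3 held none. None of the 4 held GGNNTTTCC, a short NF-kB motif, or GCGTG, the core that AHR binds. Of 32851 promoters of this length, 9.56% held the C/EBP match, 4.93% the NF-kB match and 28.2% the AHR core. These shares are per promoter. In the lists below a gene was counted when any of its promoters held a match, so the gene counts have no like share beside them. Of 13 secondary granule genes 12 had a RefSeq promoter and 5 held the C/EBP match (Anxa1, Lcn2, Ltf, Mmp8 and Ngp). Of 18 cytokine and chemokine genes 15 had one and 2 held that match, and the NF-kB match was in 1 granule and 6 cytokine genes. The AHR core was in 0 granule genes and in 5 cytokine genes (Cxcl10, Cxcl2, Ptgs2, Tgfb1 and Vegfa). Of 8 rule markers 7 had a promoter, 3 held the C/EBP match (Clec4e, Retnlg and S100a9) and 1 the AHR core (Clec4e). Of the 10 genes named as lower in HFD 7 had a promoter, 5 of which (Lcn2, Mmp8, Plac8, Retnlg and Saa3) held the C/EBP match, and of 10 named as higher 6 had one, with 0 matches. A match in letters is a description and does not show binding.

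Of 18 cytokine and chemokine genes 12 could be compared, and Ccl3, Ccl4, Csf1 and Ptgs2 were called higher in HFD, against 7.75% of all genes, while none was called lower. In core neutrophils the same 4 genes were higher and Il1a was lower, against 8.62% higher and 5.5% lower over all genes. Ccl3 (chr11:83647844-83649355, - strand), also called macrophage inflammatory protein 1 alpha, had 203 UMIs in 60 of 163 LFD cells and 257 UMIs in 35 of 58 HFD cells, 679 and 2782 CPM, a ratio of 4.09 (3.39 to 4.95). Its neighbour Ccl4 (chr11:83662584-83664683, + strand), macrophage inflammatory protein 1 beta, had 134 UMIs in 33 cells and 154 UMIs in 25 cells, 448 and 1667 CPM, a ratio of 3.72 (2.93 to 4.72). The HFD cell with most Ccl3 held 23.7% of the HFD UMIs, and without the top cell of each library the ratio was 3.48 (2.84 to 4.28). Thinned to 500 UMIs, 24.3% of LFD and 45.9% of HFD neutrophils held Ccl3, against 0.150% and 0.141% of B cells and 7.57% and 6.90% of macrophages.

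Csf1, the macrophage growth factor, had 69 and 56 UMIs (231 and 606 CPM, ratio 2.62, 1.81 to 3.79). Ptgs2, cyclooxygenase 2, had 47 and 35 UMIs (157 and 379 CPM, 2.41, 1.51 to 3.81), with 40.0% of the HFD UMIs in 1 cell, and without the top cells its ratio was 1.73 (0.969 to 3.01). Cxcl2, a ligand of Cxcr2, was the most abundant chemokine, with 2069 UMIs in 130 LFD cells and 1172 UMIs in 49 HFD cells (6925 and 12684 CPM, ratio 1.83, 1.70 to 1.97). A single HFD cell held 37.4% of its Cxcl2 UMIs, and without the top cells the ratio was 1.24 (1.13 to 1.35). Il1b, interleukin 1 beta, was found in 159 of 163 LFD and 47 of 58 HFD cells at 4110 and 3160 CPM (0.77, 0.67 to 0.87), and Tnf stood at 606 and 909 CPM (1.50, 1.14 to 1.95). Il10 and Il12b were not detected. Of the interleukin 1 antagonists, the decoy receptor Il1r2 was higher in HFD with 60 and 45 UMIs (201 and 487 CPM, 2.43, 1.61 to 3.63), and Il1rn stood at 623 and 779 CPM (1.25, 0.94 to 1.65).

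**Figure D4:**
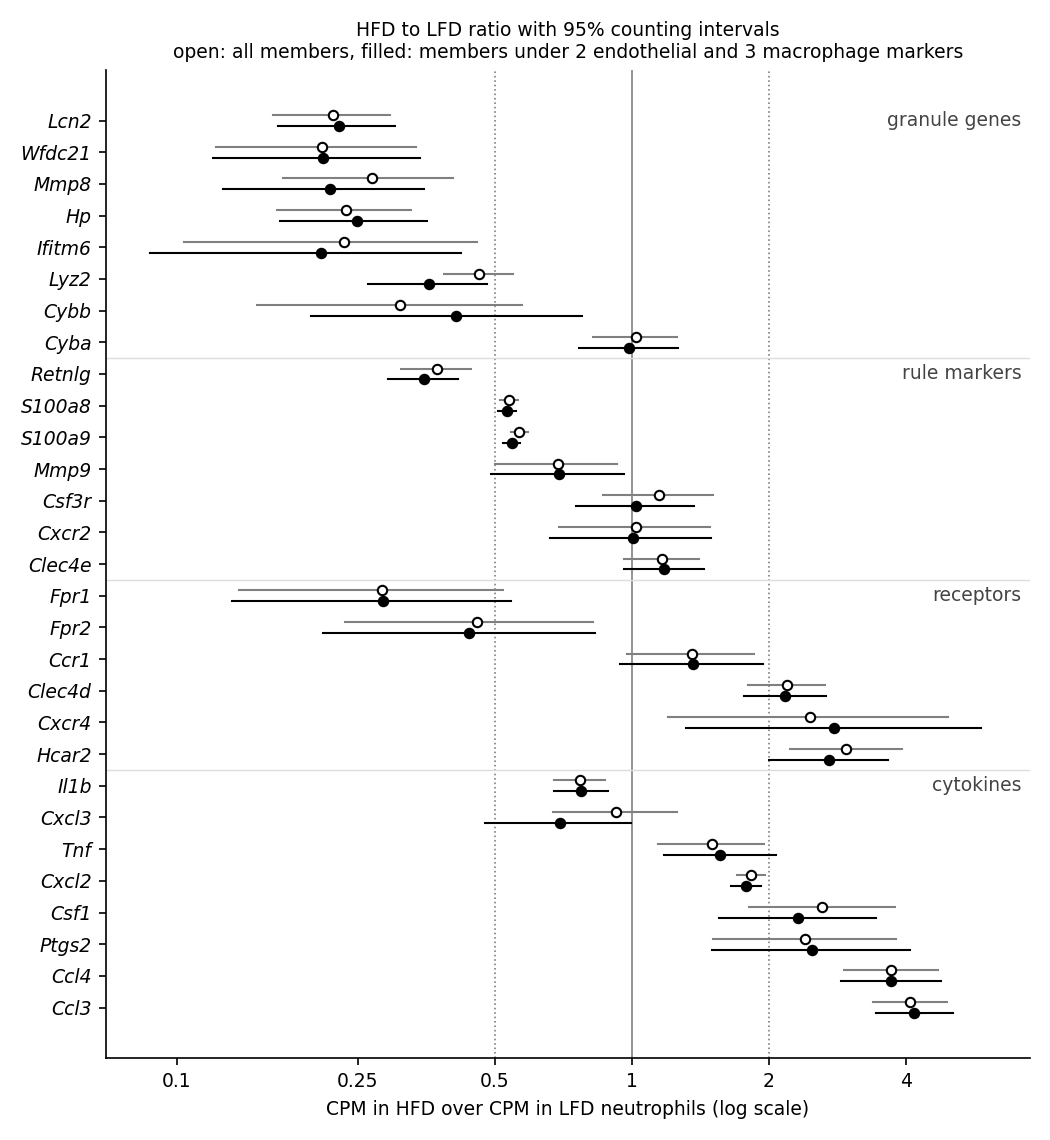
Ratio of CPM in HFD over LFD neutrophils (x axis, log scale) for granule genes, rule markers, receptors and cytokines, with 95% counting intervals, open points for all 221 neutrophils and filled points for the 187 core neutrophils, and dotted lines at 2-fold. Lcn2, Wfdc21, Mmp8 and Hp sit near 0.25 and Ccl3 and Ccl4 near 4 in both sets of cells.

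Part of the cells held transcripts of both groups. Ccl3 or Ccl4 was found in 61 of 136 LFD and 34 of 51 HFD core neutrophils, and Lcn2 or Mmp8 in 119 and 27. Cells with a UMI of both pairs were 53 in LFD and 16 in HFD, cells with the granule pair alone 66 and 11, and cells with the chemokine pair alone 8 and 18. In HFD, Ccl3 or Ccl4 was found in 59.3% of core cells with the granule pair and 75% of those without it, and in LFD in 44.5% and 47.1%. The LFD value of 47.1% rests on 8 cells with and 9 cells without the chemokine pair. The chemokine pair alone made up 5.88% of LFD and 35.3% of HFD core neutrophils. Both pairs are among the genes named for their difference between the libraries, which by itself favours a larger share in HFD. These shares are therefore not read as a separate group of cells. Detection was not thinned here, and the median depth was 1216.5 UMIs in LFD and 1018 UMIs in HFD core neutrophils. As a description across cells of 1 library, the share of calprotectin and that of secondary granule genes were positively related (Spearman rho 0.356 over 136 LFD cells and 0.386 over 51 HFD cells), and the share of calprotectin fell against that of the ferritin genes Fth1 and Ftl1 (rho -0.361 and -0.454). Shares of 1 cell sum to a fixed total, which by itself ties them to each other. The shares of secondary granule and cytokine genes had a rho of -0.227 in LFD and -0.0296 in HFD. The median cytokine share was 1.47% of UMIs in LFD and 1.75% in HFD core neutrophils, so the higher chemokine sums did not mark all HFD cells.

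Receptor genes went both ways. Of 12 chemoattractant receptor genes 11 were compared, 2 were lower and 2 higher in HFD in all and in core neutrophils. For this and the lists that follow, the shares over all genes were 7.75% higher and 4.08% lower in all neutrophils. In core neutrophils they were 8.62% and 5.5%. The formyl peptide receptors Fpr1 and Fpr2, which sense bacterial and mitochondrial peptides, had 126 and 11 UMIs (422 and 119 CPM, ratio 0.28, 0.14 to 0.52) and 92 and 13 UMIs (308 and 141 CPM, 0.46, 0.23 to 0.82). Hcar2, the receptor for niacin and beta-hydroxybutyrate, had 107 and 98 UMIs (358 and 1061 CPM, 2.96, 2.23 to 3.93), and Cxcr4, which binds the retention signal CXCL12, had 21 UMIs in 21 LFD cells and 16 UMIs in 13 HFD cells (70.3 and 173 CPM, 2.46, 1.20 to 4.96). In core neutrophils of at least 1% S100a8 and S100a9, Cxcr4 was no longer called (2.23, 0.903 to 5.22). Fpr1, Fpr2 and Hcar2 kept their calls there. Ccr1, the receptor for Ccl3, stood at 455 and 617 CPM (1.36, 0.98 to 1.86).

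Of 18 pattern recognition and Fc receptor genes 14 were compared and Clec4d was called higher, with 261 and 177 UMIs (874 and 1916 CPM, 2.19, 1.80 to 2.66). Clec4d pairs with Clec4e, which had a ratio of 1.17. A further C-type lectin of the same gene cluster, Clec4n (dectin 2), had 48 UMIs in 31 LFD cells and 81 UMIs in 28 HFD cells (161 and 877 CPM, 5.46, 3.77 to 7.97) and was among the 10 genes named as furthest above 1. Of 12 growth factor receptor genes 11 were compared and Csf2ra, the receptor subunit for granulocyte-macrophage colony-stimulating factor, was higher with 29 and 22 UMIs (97.1 and 238 CPM, 2.45, 1.34 to 4.42). Of 13 adhesion genes 11 were compared and 2 were lower, the integrin Itgal (58 and 7 UMIs, 0.39) and Icam1 (117 and 17 UMIs, 0.47, 0.26 to 0.79), with Cd47 added in the core. Itgam, which encodes CD11b, stood at 335 and 400 CPM (1.20, 0.80 to 1.76). Csf2ra, Itgal and Cd47 were no longer called in core neutrophils of at least 1% S100a8 and S100a9. Their ratios there were 2.04 (0.913 to 4.33), 0.521 (0.181 to 1.24) and 0.524 (0.160 to 1.35). Clec4d, Clec4n and Icam1 kept their calls in these cells.

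Of 23 interferon-stimulated genes 13 were compared, none was higher and 5 were lower (Ifitm3, Irf7, Oasl2, Slfn4 and Ifi204), beside 4.08% lower among all genes. In core neutrophils 3 of 10 were lower (Ifitm3, Oasl2 and Slfn4). In all neutrophils Ifitm3 had 653 and 87 UMIs (2186 and 942 CPM, 0.43, 0.34 to 0.54). Ifitm3 (0.527, 0.364 to 0.743) and Slfn4 (0.520, 0.198 to 1.16) were no longer called in core neutrophils of at least 1% S100a8 and S100a9. Oasl2 kept its call there (0.343, 0.107 to 0.852). No call was made among 12 NF-kB feedback genes (median ratio 1.20), 5 compared survival genes (1.60) or 13 compared glycolysis genes (0.737). Nfkbia stood at 1730 and 2262 CPM, Mcl1, the short-lived survival factor of neutrophils, at 1730 and 2078 CPM and Gapdh at 1744 and 1115 CPM. Of 17 myeloid transcription factor genes 14 were compared, and Klf6, Egr1 and Atf3 were called higher, but only Atf3 in core neutrophils, where it had 32 and 27 UMIs (2.49, 1.44 to 4.30) with 37.0% of the HFD UMIs in 1 cell. Cebpb stood at 977 and 1559 CPM (1.60, 1.30 to 1.95).

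The remaining groups added few calls. Cybb was the single call among 6 NADPH oxidase genes, and Ptgs2 that among 5 compared eicosanoid genes. In core neutrophils Rac2 of the oxidase genes, Alox5ap of the eicosanoid genes and Pgk1 of the glycolysis genes were also lower in HFD. Cybb (0.509, 0.244 to 0.962) and Rac2 (0.540, 0.355 to 0.795) were no longer called in core neutrophils of at least 1% S100a8 and S100a9. Ptgs2, Alox5ap and Pgk1 kept their calls in these cells. Of 12 genes linked with tissue neutrophil states 8 were compared. Cxcr4, Ccl3 and Hilpda were higher and Icam1 and Xbp1 lower, of which Xbp1 was not called in core neutrophils, and Siglecf, which marks aged tissue neutrophils, had 0 and 1 UMIs. Hilpda, a lipid droplet protein induced by hypoxia and fatty acids, had 55 and 49 UMIs (184 and 530 CPM, 2.88, 1.92 to 4.31). Of 12 cell cycle genes only Birc5 was called, with 23 LFD UMIs in 2 cells, and in core neutrophils none had 20 UMIs. Among 8 AHR pathway genes 5 were compared with no call, and the AHR target Tiparp stood at 137 and 195 CPM (1.42, 0.77 to 2.53) and Nqo1 at 93.7 and 152 CPM (1.62, 0.79 to 3.18).

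Some of the genes furthest from 1 by the bound of their interval belonged to none of the gene lists. Gpnmb (chr6:49036546-49070929, + strand), a glycoprotein of lipid-laden macrophages, had 1 UMI in LFD and 35 UMIs in 6 HFD cells (3.35 and 379 CPM). In core neutrophils it had 0 and 23 UMIs in 4 cells, at least 22.7-fold higher in HFD with LFD set to 3 counts, and 10 of these 23 were in 1 cell with a calprotectin share of at least 1%. Macrophages held Gpnmb at 1042 and 816 CPM, and macrophage markers are limited in the neutrophils by the rule and in the core by its definition, so their level does not bear on the source of these UMIs, which was not tested. Nceh1, a cholesteryl ester hydrolase, had 6 and 18 UMIs (20.1 and 195 CPM, ratio 9.70). Osbpl8, Spen and Amdhd2 were also on this list with 15 to 21 HFD UMIs each. In core neutrophils the proton pump subunit Atp6v1a (19 and 36 UMIs, 5.60, 3.13 to 10.3), the lysosomal saposin precursor Psap (96 and 111 UMIs, 3.42, 2.58 to 4.54) and Thbs1 (23 and 39 UMIs, 5.01, 2.92 to 8.79) joined them. The macrophage marker Cd68 moved with them, at 17 and 14 UMIs in core neutrophils (2.43, 1.11 to 5.25), and its part in these differences was not tested. Slc7a11, the cystine importer, and Hmox1, heme oxygenase 1, were chosen after their values were seen, with 1175 and 2684 CPM (2.28, 1.93 to 2.70) and 311 and 801 CPM (2.57, 1.87 to 3.53).

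On the lower side Saa3, an acute phase apolipoprotein, had 334 UMIs in 133 LFD cells and 19 UMIs in 10 HFD cells (1118 and 206 CPM, ratio 0.18, 0.11 to 0.29), with 52.6% of the HFD UMIs in 1 cell and a ratio of 0.093 without the top cells. Saa3 was the same way round in other classes, at 13413 and 3458 CPM in stromal and mesothelial cells, 612 and 142 CPM in macrophages and 384 and 68.8 CPM in B cells. Hp had 370 and 66.4 CPM in stromal and mesothelial cells, below its neutrophil level, and Lcn2 60.5 and 25.6 CPM. The part of stromal RNA in the neutrophil values of Saa3 was not tested. Iglc1 and Ighm, immunoglobulin genes, were on the higher side with 2 and 18 and with 56 and 68 UMIs, beside the plasma cell counts of 274 and 1152. Plac8 (ratio 0.22, and 0.41 in core neutrophils) and Ecscr (0.06, and 0.29 without the top cells with HFD set to 3 counts) completed the lower side. Ecscr, an endothelial gene, had 3 and 0 UMIs in core neutrophils.

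Against macrophages of the same library, the nearest myeloid class, 434 of 7397 compared genes (5.87%) were at least 2-fold higher in neutrophils in both libraries and 403 (5.45%) lower. The higher genes include endothelial ones, with 13 of 14 compared endothelial markers above macrophages and Cdh5, Gpihbp1 and Ly6c1 among the 10 furthest above. For core neutrophils the higher and lower counts were 387 (5.4%) and 513 (7.15%) of 7173. Cstdc4, Lcn2, Mrgpra2b, Stfa2l1, G0s2, Il1f9, Pglyrp1, Hdc, Hcar2 and Wfdc21 were the core genes furthest above macrophages. Hdc, which makes histamine, stood at 586 and 704 CPM in neutrophils against 9.69 and 3.04 CPM in macrophages, and G0s2, an inhibitor of adipose triglyceride lipase, at 649 and 617 CPM against 1.61 and 2.66 CPM. The macrophage genes Apoe (12915 and 8039 CPM in macrophages) and Pf4 (6037 and 3406 CPM) and the MHC class II gene H2-Ab1 (1104 and 1246 CPM) were among those furthest below, and in core neutrophils Apoe stood at 78.9 and 17.9 CPM, Pf4 at 0 and 17.9 CPM and H2-Ab1 at 18.2 and 17.9 CPM. Apoe and Pf4 are among the 12 markers that define the core, so their low level there, and part of the count of 513 lower genes, follows from that definition. Ribosomal protein genes took a median of 4.03% and 3.50% of the UMIs of core neutrophils, 12.1% and 11.1% of those of macrophages and 27.3% and 25.8% of those of B cells.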

How the data were processed

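Single-cell 3′ libraries of sorted eYFP+ gWAT cells, 1 per diet, were analysed. The authors deposited raw UMI counts per gene and barcode, made per the labels with Cell Ranger 4.0.0 and STAR on mm10. The library, not the cell, is the sample, so no p-values were computed. Filters followed the authors' methods (limits given with the results), except that doublets were not removed, since Scrublet (scanpy 1.11.5) scores were used only as an alternative. The highest scores at an assumed rate of 0.8% per 1000 barcodes were removed (the caller's own threshold marked 3.64% and 3.91% of cells), which took out 978 of 10216 LFD and 693 of 8537 HFD cells, 8 and 3 of them neutrophils.

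UMI counts were summed over neutrophils of a library and divided by their total (CPM). Shares have Clopper-Pearson intervals, levels exact Poisson intervals, and ratios exact conditional binomial intervals. For a library at 0, 3 counts were used as the upper limit. Cells were thinned by the expected share with a UMI among 500 drawn UMIs. Named genes were the 10 called genes per direction whose interval bound nearest 1 lay furthest from it, in all and in core neutrophils, likewise against macrophages, the 25 most abundant, and members of the gene lists. Others are stated as chosen after their values were seen. Some genes that this rule names are not reported here. The members, lists and tests were chosen with earlier results of these data known. The calls were tested on simulated data. These were Poisson sums per library without single cells, so they do not bear on calls that rest on few cells. Positions are GENCODE M21 (GRCm38). Of 339 listed genes 1, Clec7a, was not matched by name in the deposited features. Analyses used Python 3.11.15, numpy 2.4.6, scipy 1.17.1 and pandas 2.3.3.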

Additional observations from a re-analysis of the deposited data

How the results depend on the processing

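With 1 library per diet, no result was tested against the spread between animals, and 92396 HFD UMIs limit the precision of genes with few counts. The HFD to LFD ratio of neutrophil shares stayed between 0.359 and 0.518 under the alternatives with all kept cells as the denominator. It was 0.287 among 6 immune classes, plasma cells included. The HFD share (0.679%) was 0.949% with at least 2 markers, 0.454% with at least 1000 UMIs and 0.492% without cells carrying endothelial or macrophage markers or under 1% S100a8 and S100a9. The LFD share (1.60%) was 1.25% with at least 1000 UMIs, 1.33% in core neutrophils and 1.29% without those under 1% as well. The endothelial level in HFD (15845 CPM) was 10721 with at least 2 markers, 18303 with at least 4, 19268 with at least 1000 UMIs, 9654 after Scrublet, 4325 without cells over 5000 UMIs and 5048 as a mean over cells. That in LFD (10185 CPM) was 11062 with at least 4 markers, 11285 with at least 1000 UMIs, 6617 after Scrublet, 6622 without cells over 5000 UMIs and 3809 as a mean over cells.

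The 224 genes higher in HFD became 132 without cells of at least 2 endothelial markers, 127 in core neutrophils, 98 without those under 1% S100a8 and S100a9 as well, 145 without cells over 5000 UMIs and 80 among genes with at least 50 UMIs. The 118 lower genes became 208 with at least 2 markers and 66 without the cells under 1%. Median-ratio scaling (a shift of 0.036 on the log2 scale) gave 212 and 132. Of 220 possible alternative ratios for 20 named genes, 6 (of Chil3 and Ecscr) could not be given because too few UMIs were left. All 214 others kept their direction and 179 their call, while 34 had under 20 UMIs left and so could not be called (Gpnmb, Iglc1, Nceh1, Osbpl8, Spen, Amdhd2 and Ecscr). Ecscr was at 0.605 without cells over 5000 UMIs and Plac8 at 0.518 in core neutrophils of at least 1% S100a8 and S100a9. The cause of these changes was not tested. Leaving out cells over 5000 UMIs, with macrophage markers or under 1% S100a8 and S100a9, or the top cell per gene, was chosen after seeing the data. No paired analysis was possible because each diet has 1 library.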
